A study of Mus musculus with 145 samples.

Results

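The question was how the effect of a single 40 mJ/cm2 exposure on mouse skin changed between 6 h, early after the damage, and 48 h, when inflammation and repair follow. The quantity studied is the difference of differences, in which the 40 mJ/cm2 effect against sham at 6 h was subtracted from the same effect at 48 h. It was measured by RNA sequencing in 20 of the 145 libraries of the series, 5 in each of the groups Sham 6 h, 40 mJ/cm2 6 h, Sham 48 h and 40 mJ/cm2 48 h, chosen by their dose and time labels. The light source was a sunbed canopy with 8 fluorescent lamps of 100 W each (96.4% UVA and 3.6% UVB, per the series' design text), and sham animals were handled as controls at a dose of 0. Libraries were made from polyA RNA of dorsal skin, 1 per animal. The sources used here do not give strain, sex or age. Values for single libraries are CPM, counts scaled to a common library size, in the order of replicates 1 to 5. Fold changes are log2 values ± standard error (SE), with calls made at an adjusted p below 0.05.

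Ultraviolet light makes bulky lesions in DNA that stall RNA polymerase, and a long gene offers more places for one than a short gene. Damaged cells stabilise p53, which switches on genes of arrest, repair and apoptosis within hours. Keratinocytes and resident cells also release cytokines that draw neutrophils and monocytes, and over the following days the epidermis thickens, using keratins and envelope proteins of wound repair.

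The tissue held the cell types of skin with underlying muscle. The keratinocyte gene Krt5 ran from 591 to 4268 CPM, the fibroblast gene Col3a1 from 12164 to 25354 CPM, and the muscle gene Myh4 from 4614 to 17787 CPM across the 20 libraries. Total counts ran from 3.88 M to 23.6 M per library. Mitochondrial genes took 2.14% to 13.5% of the counts, with the highest share in Sham 6 h replicate 4, and ran from 2.14% to 3.63% in irradiated and 3.15% to 5.87% in sham skin at 48 h. Summed hair shaft genes stood apart at 1785 CPM in Sham 48 h replicate 2, against 24.6 to 437 CPM in the other 19 libraries. Library titles end in R1_001 (replicates 1 to 3 at 6 h, 1 and 2 at 48 h) or in R1, in sham and irradiated groups alike. The sources used here do not say what the ending marks, and it was carried as a covariate.

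Of 16470 genes tested, 648 (3.93%) had a 40 mJ/cm2 effect that differed between the times. For 414 (2.51%) the effect was higher at 48 h than at 6 h, and for 234 (1.42%) it was lower. At 6 h alone, 1031 genes (6.26%) were called higher and 1157 (7.02%) lower in irradiated than in sham skin. At 48 h, 965 (5.86%) were called higher and 1072 (6.51%) lower. Among the 414 genes with a higher late effect, 237 were called down at 6 h and not called at 48 h, with a median of -1.05 at 6 h and 0.06 at 48 h. Another 126 were called up at 48 h and not at 6 h, 12 were called up at both times, 17 were called down at 6 h and up at 48 h, 3 were called down at both, and 19 were called at neither. Among the 234 with a lower late effect, 162 were called down at 48 h and not at 6 h, 56 up at 6 h and not at 48 h, 5 up at both, 2 up at 6 h and down at 48 h, and 9 at neither. The median difference over all tested genes was -0.05. Between the times, 12 genes were called higher and 69 lower at 48 h in sham animals, and 1984 and 2312 in irradiated animals. Both comparisons share libraries with the difference.

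**Figure D1:**
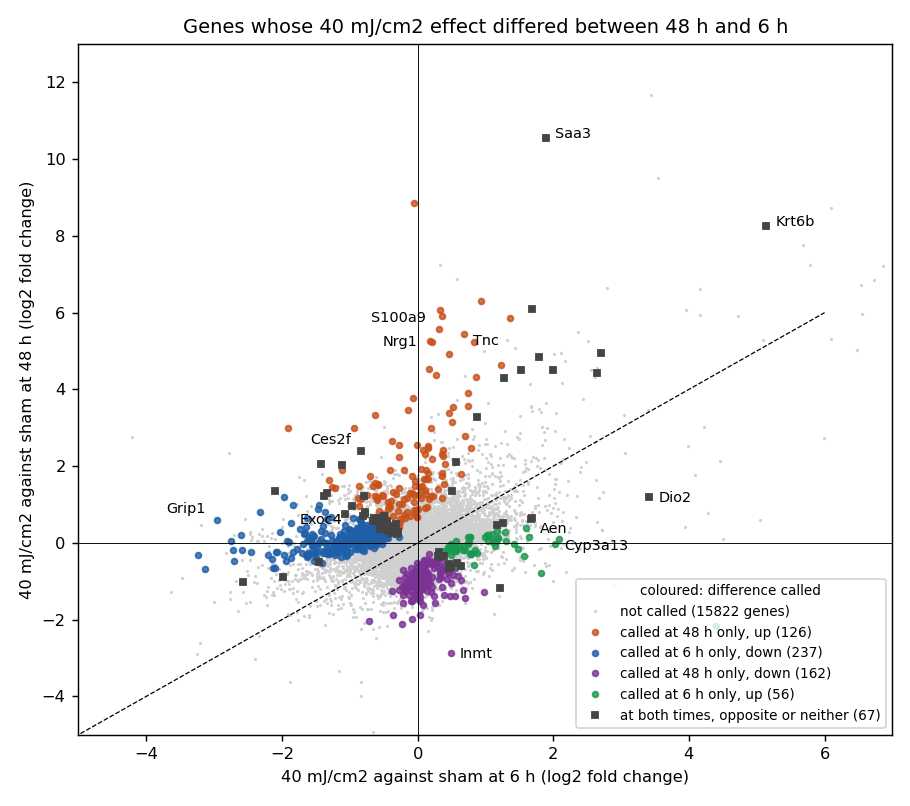
Log2 fold change of 40 mJ/cm2 against sham at 6 h (horizontal) and at 48 h (vertical) for each tested gene, with genes called in the difference coloured by their calls at each time; on the dashed line both effects are equal. The 237 genes called down only at 6 h spread to the left near 0 at 48 h, and the 126 called up only at 48 h rise near 0 at 6 h; 3 genes that were not called lie outside the axes.

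The number of calls depended on single libraries. It was 1177 without 40 mJ/cm2 6 h replicate 4 and 1097 without Sham 48 h replicate 2, and 383, 391, 403, 405 and 410 without Sham 48 h replicate 5, Sham 6 h replicate 2, Sham 48 h replicates 1 and 4, and 40 mJ/cm2 48 h replicate 5. All 648 genes kept their sign in each of the 20 fits without 1 library, and 318 stayed called in all 20. With libraries of each title ending alone the sign was kept for all 648, while 0 genes (R1_001, 1504 at an unadjusted p under 0.05) and 7 genes (R1) were called. The 648 were chosen from these same libraries, so a kept sign in either check was likely beforehand and is no independent support.

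Many long genes were lower at 6 h in irradiated skin and back near the sham level at 48 h. Of the 237 genes called down only at 6 h, 126 span at least 200 kb in the annotation, and their median span was 211 kb, against 20.2 kb over all tested genes. Among all 736 tested genes of at least 200 kb, 403 (54.8%) were called lower at 6 h and 125 (17.0%) at 48 h, and 147 (20.0%) had a higher effect at 48 h. Among 5138 genes under 10 kb, 61 (1.19%) were called lower at 6 h and 41 (0.798%) had a higher effect at 48 h. With the muscle level as a covariate 636 of these 5138 short genes and 163 of the 736 long ones were higher. The median difference of the short genes then turned from -0.20 to 0.14, and that of the long ones went from 0.51 to 0.33. By limma voom 108 of the short and 261 of the long genes were higher, and by DESeq2 82 and 194. Over all 16470 genes the muscle covariate gave 2074 higher, limma voom 1114 and DESeq2 711. The median effect at 6 h went from 0.19 under 10 kb through 0.08 and -0.22 to -0.66 at 200 kb or more. At 48 h the medians in the same order were 0.03, 0.02, -0.05 and -0.23, so the longest class was still the lowest.

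The same was seen in single libraries. The median level of genes of at least 200 kb minus that of genes under 10 kb was 1.14 to 1.93 (log2 CPM) in sham skin at 6 h and 0.15 to 0.72 in irradiated skin, without overlap. At 48 h the ranges were 0.92 to 1.43 in sham and 0.67 to 1.13 in irradiated skin, and they overlapped. Of the genes of at least 200 kb, 136 had a higher late effect without Sham 6 h replicate 4, the library with the highest mitochondrial share, and 61 in a fit of all 145 libraries.

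**Figure D2:**
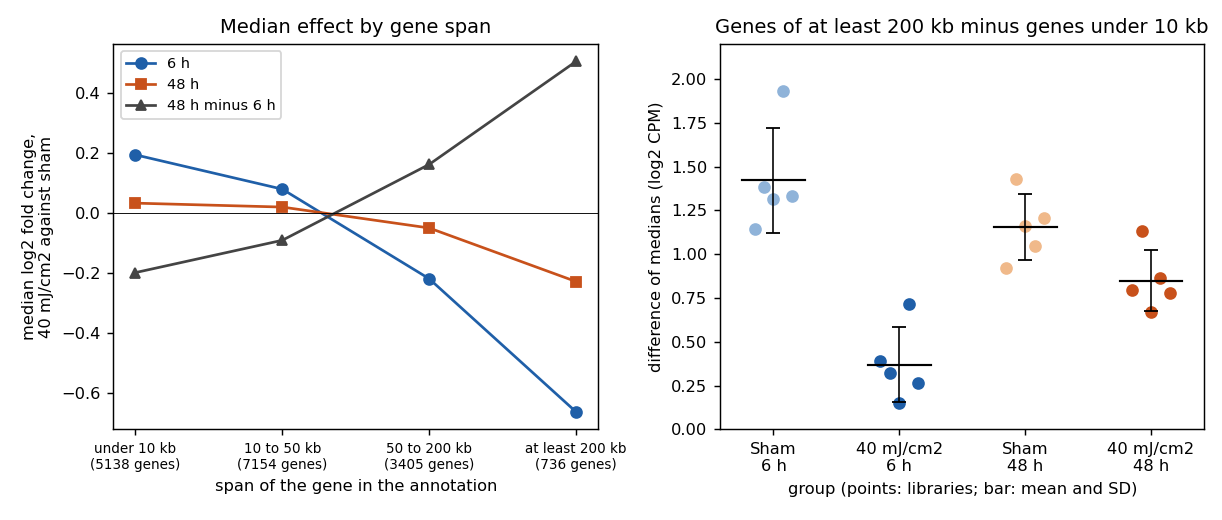
Left, median log2 fold change of 40 mJ/cm2 against sham by span class of the gene at 6 h, at 48 h and for their difference; right, median level of genes of at least 200 kb minus that of genes under 10 kb in each library, with mean and SD. The 6 h median falls to -0.66 in the longest class and the 48 h median to -0.23, and the irradiated libraries at 6 h (0.15 to 0.72) lie lowest, with only replicate 4 of them above the lowest 48 h library, at 0.67.

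Exoc4, which encodes a subunit of the exocyst complex that tethers secretory vesicles, spans 725 kb and had the smallest p of this pattern. It stood at 47.5, 49.9, 54.7, 49.4 and 51.7 CPM in sham and 29.2, 26.8, 26.1, 21.9 and 23.2 CPM in irradiated skin at 6 h. At 48 h it stood at 45.0, 56.6, 49.9, 45.1 and 48.7 CPM and 63.0, 60.6, 50.4, 55.3 and 55.2 CPM. The groups were apart at 6 h, with every irradiated library below every sham library, and overlapped at 48 h. The effect was -1.0 ± 0.10 at 6 h and 0.21 ± 0.09 at 48 h, a difference of 1.21 ± 0.13 (adjusted p = 0.000214). Exoc6b (451 kb), another subunit of the complex, differed by 1.37 ± 0.18.

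Elmo1 and Carmil1, which act on the actin cytoskeleton, span 518 and 268 kb. Their effects went from -1.14 ± 0.10 and -1.55 ± 0.14 at 6 h to -0.04 ± 0.10 and -0.09 ± 0.13 at 48 h. Slc9a9, a sodium and proton exchanger of endosomes (561 kb), ran from 23.2 to 31.2 CPM in sham and 6.97 to 10.9 CPM in irradiated skin at 6 h to 19.7 to 28.0 and 20.6 to 31.4 CPM at 48 h. Its groups were apart early and overlapped late, with a difference of 1.65 ± 0.22 (adjusted p = 0.000743). The scaffold gene Grip1 (633 kb) had the largest difference of this pattern among the genes named, 3.55 ± 0.75 (adjusted p = 0.0125). It stood at 2.30, 3.94, 2.45, 2.57 and 2.37 CPM in sham and 1.55, 0, 0.226, 0.103 and 0.404 CPM in irradiated skin at 6 h, where replicate 2 was at 0. Later, at 48 h, it stood at 3.18 to 6.06 and 4.21 to 9.51 CPM and the groups overlapped.

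In the difference, 3 genes called down at both times were down less at 48 h. Lrba, which guides vesicle traffic of immune receptors and spans 558 kb, stood at 41.9, 50.0, 50.9, 57.7 and 45.2 CPM in sham and 23.5, 17.4, 17.4, 17.6 and 14.4 CPM in irradiated skin at 6 h. The 48 h values were 45.2, 53.2, 44.1, 48.2 and 45.8 CPM and 38.2, 43.1, 26.9, 31.0 and 29.8 CPM. The irradiated libraries were below all sham libraries at both times, by -1.46 ± 0.14 and -0.50 ± 0.13. The polarity gene Pard3b (1003 kb) went from -1.98 ± 0.17 to -0.89 ± 0.16. The phospholipid transporter Atp10b (112 kb) went from -2.58 ± 0.30 to -1.02 ± 0.28, and its difference was not called in 14 of the 20 fits without 1 library.

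Acute phase genes are made in liver and inflamed epithelium and bind lipids, iron carriers or microbes. Of 11 tested, Saa1, Saa2, Saa3 and Lcn2 had a higher effect at 48 h and 0 a lower one, with a list median of 0.22 at 6 h and 1.50 at 48 h. Saa3, a serum amyloid A, stood at 2.03, 8.31, 2.86, 1.88 and 3.04 CPM in sham and 11.7, 20.2, 7.24, 3.93 and 20.3 CPM in irradiated skin at 6 h. By 48 h it stood at 0, 0.247, 0.292, 0.302 and 0.636 CPM and 159, 73.1, 984, 813 and 620.0 CPM. The 6 h groups overlapped in part, and the 48 h groups were far apart. Within the irradiated 48 h group replicates 1 and 2 (titles ending in R1_001) were lower than 3 to 5 (R1). The effect went from 1.89 ± 0.62 to 10.54 ± 0.88, a difference of 8.65 ± 1.06 (adjusted p = 0.000672). Within titles ending in R1_001 the difference was 7.49 and within those ending in R1 8.76. Over the 11 genes the median difference was 0.30 within R1_001 titles and 1.34 within R1 titles. The title covariate is a shift common to all groups, so it does not take up an effect that differs by ending.

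Lcn2, lipocalin 2, binds the iron carriers of bacteria. It stood at 9.20, 6.90, 10.5, 4.94 and 5.81 CPM in sham and 24.6, 12.7, 19.4, 12.7 and 21.1 CPM in irradiated skin at 6 h. Its levels at 48 h were 2.42, 1.40, 2.41, 3.14 and 2.42 CPM and 18.5, 15.5, 81.1, 84.3 and 40.2 CPM. The groups were apart at both times, and sham skin was lower at 48 h. The effect went from 1.27 ± 0.39 to 4.30 ± 0.45 (difference 3.03 ± 0.58, adjusted p = 0.00717). Saa1 differed by 5.37 ± 1.18. Saa2 was at 0 in all 5 sham libraries at 48 h and at 1.13, 1.51, 7.92, 10.1 and 4.68 CPM in irradiated skin, at least 132-fold higher against a floor of 3 counts over the sham group. The 2 genes are near copies, so their values can borrow from each other.

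The 250 bases before the start of Saa3, Lcn2 and S100a9 (RefSeq, GRCm38.p6, all on the minus strand) are shown because these inflammatory genes are among those with the largest late effects. Capitals mark matches to TTGCNNAA, the core of the C/EBP motif, on either strand.
Saa3 chr7:46715677-46715926: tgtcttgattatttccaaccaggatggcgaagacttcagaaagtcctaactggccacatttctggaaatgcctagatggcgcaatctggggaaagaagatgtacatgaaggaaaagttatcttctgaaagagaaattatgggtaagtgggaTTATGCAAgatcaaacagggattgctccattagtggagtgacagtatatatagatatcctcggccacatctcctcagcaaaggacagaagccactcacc
Lcn2 chr2:32387740-32387989: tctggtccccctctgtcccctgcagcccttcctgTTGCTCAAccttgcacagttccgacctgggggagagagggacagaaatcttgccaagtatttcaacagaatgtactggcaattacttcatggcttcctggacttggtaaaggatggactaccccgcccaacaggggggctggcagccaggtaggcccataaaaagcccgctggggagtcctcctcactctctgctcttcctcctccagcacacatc
S100a9 chr3:90695722-90695971: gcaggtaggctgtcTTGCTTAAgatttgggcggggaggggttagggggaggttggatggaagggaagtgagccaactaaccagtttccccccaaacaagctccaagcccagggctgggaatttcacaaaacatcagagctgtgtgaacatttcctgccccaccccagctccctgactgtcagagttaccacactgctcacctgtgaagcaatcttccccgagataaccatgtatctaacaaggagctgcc
The matches begin 99, 216 and 236 bases before the start. This motif was found in 3 of 7 windows of genes called up at both times with a higher late effect (42.9%). Saa3 and Lcn2 are among those 3. The motif was found in 10 of 101 of those up only at 48 h (9.90%) and in 924 of 11667 tested genes with a window (7.92%). Among genes with a lower late effect it was in 17 of 123 down only at 48 h (13.8%). Of those up only at 6 h it was in 6 of 49 (12.2%). The Tnc window was also searched and held no C/EBP match. The AP-1 motif TGANTCA was found in 0 of the 7, in 6 of the 101 (5.94%) and in 4.94% of tested genes, on either strand. Of all motifs searched, C/EBP had the highest share in the 7. The p53 half-site was in 2 of the 7 (28.6%) and in 6.25% of tested genes, and NF-kB, STAT, cyclic AMP and TATA motifs in 0 of the 7. AP-1, NF-kB, STAT and TATA motifs were also searched in the 3 windows shown, without a match. A match describes letters and not binding.

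Wound matrix genes form the provisional matrix of healing tissue. Of 18, Tnc, Prg4, Col12a1 and Spp1 had a higher late effect and 0 a lower one, and the list median went from 0.25 to 1.13. The list's median change between the times was -0.33 in sham and -0.04 in irradiated skin. Tnc, the matrix glycoprotein tenascin C of wound edges, stood at 27.7, 38.0, 37.7, 24.2 and 23.2 CPM in sham and 43.8, 53.1, 47.2, 33.2 and 65.4 CPM in irradiated skin at 6 h. In the 48 h animals it stood at 11.8, 64.9, 37.2, 20.9 and 13.1 CPM and 282, 600.3, 2392, 2026 and 1509.8 CPM. The early groups overlapped. Late, every irradiated library was above every sham library, and replicates 1 and 2, with R1_001 titles, were again the lowest. The difference was 4.76 ± 0.72 (adjusted p = 0.00207), 3.01 within R1_001 titles and 5.32 within R1 titles. Prg4, the lubricant proteoglycan 4, differed in another way. It stood at 15.8 to 80.7 CPM in sham and 49.7 to 98.5 CPM in irradiated skin at 6 h, and at 3.14 to 6.80 and 54.1 to 164 CPM at 48 h. Sham skin changed between the times by -3.08 ± 0.40 (adjusted p = 0.00494) and irradiated skin by 0.39 ± 0.37 (adjusted p = 0.446), and the late effect was 4.33 ± 0.42. Col12a1, a collagen of stretched matrix, differed by 2.31 ± 0.54, and Spp1, osteopontin, by 1.53 ± 0.39, with the Spp1 call lost in 10 of 20 fits without 1 library. Of 18 metalloproteinases and inhibitors, the protease Mmp19 had a higher effect at 48 h (1.48 ± 0.37) and the inhibitor Timp2 a lower one (-0.92 ± 0.23).

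Some growth factors that act on keratinocytes had a higher late effect. Ligands of the epidermal growth factor receptor family drive keratinocyte division and migration. Of 8, Nrg1 and Tgfa had a higher effect at 48 h and 0 a lower one. Nrg1, neuregulin 1, binds relatives of that receptor and spans 1069 kb. It stood at 0.135, 0.282, 0.68, 0.696 and 0.357 CPM in sham and 0, 0.668, 0.453, 0.517 and 0.303 CPM in irradiated skin at 6 h. At 48 h it stood at 0.538, 0.247, 0.584, 0.724 and 0.127 CPM and 5.67, 10.4, 32.6, 23.1 and 19.2 CPM. It was near 0 in all 3 other groups and above every one of their libraries in each irradiated library at 48 h, a difference of 5.08 ± 0.75 (adjusted p = 0.00151). Tgfa stood at 10.5 to 13.0 and 10.7 to 15.1 CPM at 6 h, where the groups overlapped, and at 6.74 to 13.7 and 14.2 to 51.2 CPM at 48 h, where they did not (difference 1.67 ± 0.35, adjusted p = 0.0117). Hgf, the hepatocyte growth factor made by fibroblasts, differed by 3.04 ± 0.49. Other ligands did not pass the test. Areg differed by 2.16 ± 0.70 (adjusted p = 0.0918), Btc by 2.74 ± 0.79 (adjusted p = 0.0571) and Hbegf by 0.11 ± 0.41 (95% interval -0.74 to 0.96). Hbegf was called up at both times, by 1.20 ± 0.29 and 1.32 ± 0.29.

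Keratins of wounded epidermis were up at both times. Of 4, 3 were called up at 6 h and all 4 at 48 h, and Krt6a and Krt6b had a higher effect at 48 h. By limma voom 1 of the 4 was called higher, and with all 145 libraries 0. Krt6a stood at 79.5, 57.8, 74.1, 80.0 and 62.1 CPM in sham and 329.9, 558, 412, 343 and 559 CPM in irradiated skin at 6 h. Later, at 48 h, it stood at 96.6, 106, 114, 89.4 and 61.6 CPM and 1016, 1950.2, 3346, 1863 and 2014 CPM. Irradiated libraries were above all sham libraries at both times, and each one at 48 h was above each one at 6 h. The effect went from 2.64 ± 0.26 to 4.43 ± 0.28 (difference 1.79 ± 0.35, adjusted p = 0.0081). Its close relative Krt6b went from 5.14 ± 0.60 to 8.24 ± 0.69, with the call lost in 4 of the 20 fits without 1 library, and reads may be shared between them. Krt16, a partner keratin, went from 3.96 ± 0.53 to 6.07 ± 0.59, and the difference of 2.11 ± 0.69 was not called (adjusted p = 0.0918).

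Small proline-rich, late cornified envelope and stefin genes build or guard the cornified envelope. Of 28 listed, 20 were tested, with 14 called up at 6 h and 19 at 48 h and medians of 4.20 and 5.63. Among the 20, Sprr2a2 and Stfa1 had a higher late effect. The list's median change between the times was -1.30 in sham and -0.33 in irradiated skin. Without 1 library 1 to 4 were higher and 0 to 1 lower, and with all 145 libraries 0. By limma voom 1 was higher and 1 lower, and the median difference of 1.62 became 0.27. Sprr2a2 stood at 3.41 to 36.0 CPM in sham and 6.36 to 40.2 CPM in irradiated skin at 6 h, and at 5.40 to 35.6 and 142 to 625 CPM at 48 h. Its groups overlapped early and not late (difference 4.36 ± 0.94, adjusted p = 0.0144). Sprr2 genes share sequence, so single members are uncertain. Among 38 genes of normal terminal differentiation edgeR called 0 in the difference (6 at an unadjusted p under 0.05, 1 by DESeq2, 3 by limma voom). Their median was -0.31 at 6 h and -0.33 at 48 h. Over all 16470 genes, 3115 had an unadjusted p under 0.05 in the difference, DESeq2 called 1242 and limma voom 2035.

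Basal keratinocyte and hemidesmosome genes anchor the epidermis to its basement membrane. Of 14, 3 had a higher effect at 48 h, among them Lama3 and Itga6, and 0 a lower one, and all 14 differences were above 0 in value. Lama3, a chain of laminin 332, spans 249 kb. It stood at 48.8, 54.8, 70.0, 51.9 and 49.5 CPM in sham and 45.4, 31.5, 35.1, 33.2 and 36.0 CPM in irradiated skin at 6 h, and at 40.8 to 64.9 and 60.9 to 89.8 CPM at 48 h. It was called down early, -0.60 ± 0.15, with no overlap, and up late, 0.59 ± 0.15, where 1 irradiated library lay within the sham range. Itga6, its integrin receptor chain, went from -0.51 ± 0.14 to 0.50 ± 0.14.

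Further genes had a higher late effect. Gsta4, a glutathione transferase for lipid aldehydes, stood at 5.27, 5.49, 6.12, 5.71 and 5.09 CPM in sham and 9.80, 12.7, 8.60, 9.62 and 9.29 CPM in irradiated skin at 6 h. The 48 h values were 7.00, 5.61, 7.16, 6.69 and 7.51 CPM and 25.7, 47.4, 133, 73.1 and 61.1 CPM. It was already apart at 6 h and rose further (difference 2.41 ± 0.39, adjusted p = 0.00314), the only one of 17 Nrf2 target genes called. The complement protease gene Masp1 went from 0.57 ± 0.17 to 2.10 ± 0.18, the mitochondrial carrier Slc25a48 from -0.03 ± 0.16 to 1.61 ± 0.16, the gasdermin Gsdmc from -0.63 ± 0.59 to 3.34 ± 0.61 and the chromatin protein gene Hmga2 from -0.14 ± 0.45 to 3.45 ± 0.49.

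**Figure D3:**
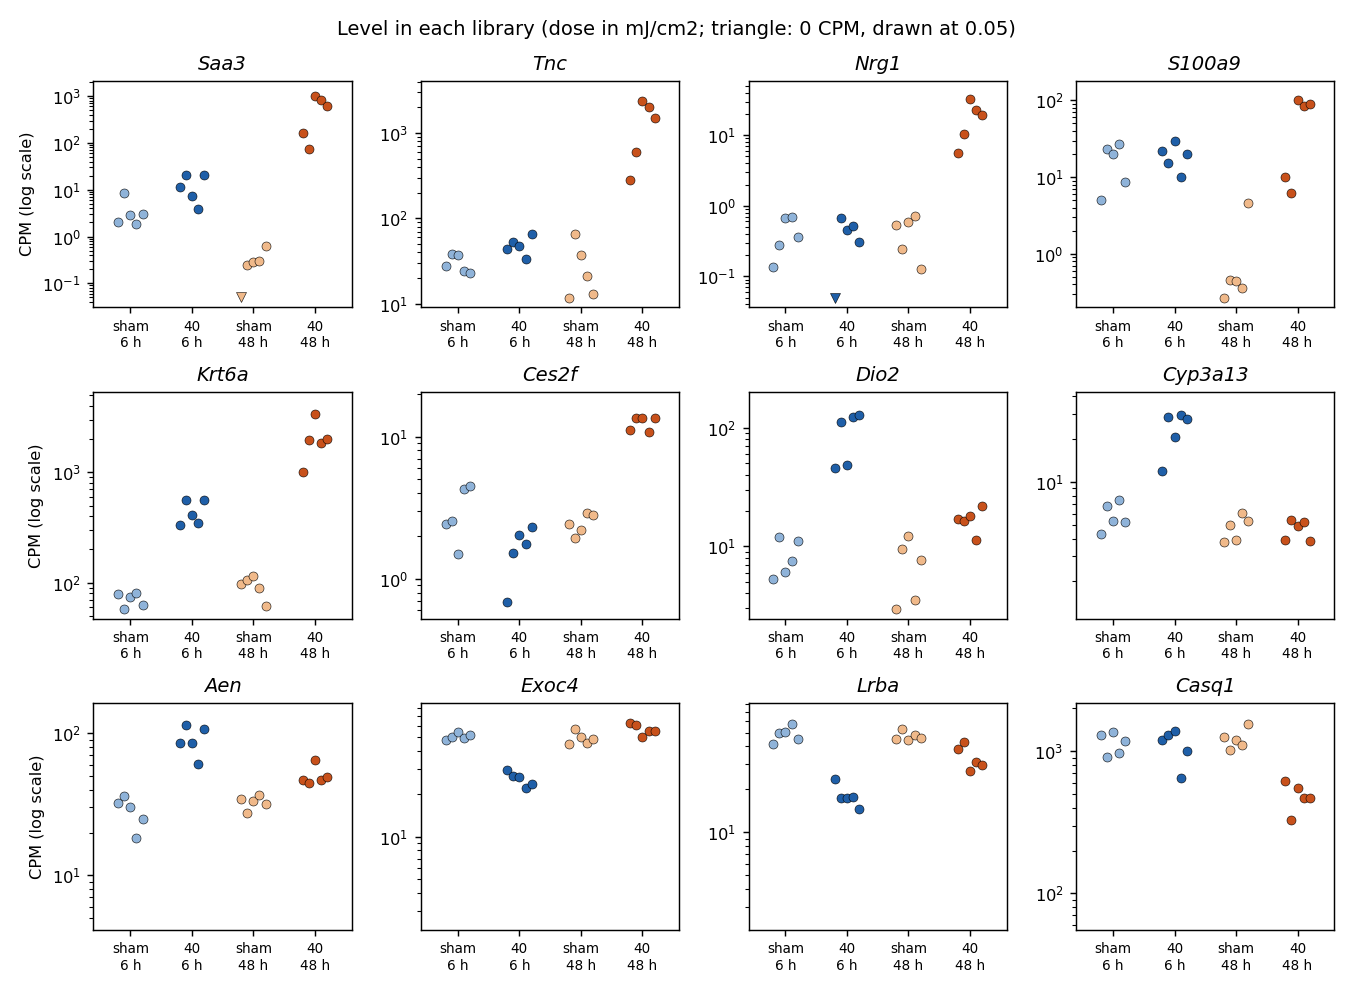
CPM of 12 genes in each of the 20 libraries on a log scale, with groups from left to right Sham 6 h, 40 mJ/cm2 6 h, Sham 48 h and 40 mJ/cm2 48 h; a triangle is a library at 0. Saa3, Tnc and Nrg1 are high only in irradiated skin at 48 h, Dio2, Cyp3a13 and Aen are highest in irradiated skin at 6 h, Exoc4 and Lrba are lowest there, and Casq1 is lowest in irradiated skin at 48 h.

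Several neutrophil genes had a higher effect at 48 h. Of 20 listed neutrophil markers 14 were tested, and 6 had a higher effect at 48 h (S100a8, S100a9, Cxcr2, Clec4d, Csf3r and Mmp8) and Il1r2 a lower one. The list medians were 0.47 at 6 h and 3.86 at 48 h. The list's median change between the times was -1.91 in sham and 0.58 in irradiated skin. S100a9, a calprotectin subunit that fills neutrophils and is also made by stressed keratinocytes, stood at 5.00, 23.1, 19.9, 26.9 and 8.58 CPM in sham and 22.0, 15.4, 29.5, 10.0 and 19.9 CPM in irradiated skin at 6 h. By 48 h it stood at 0.269, 0.453, 0.438, 0.362 and 4.58 CPM and 10.0, 6.29, 102, 84.2 and 88.9 CPM. The 6 h groups overlapped at a raised level. At 48 h sham skin was low except in replicate 5. Irradiated replicates 1 and 2 (R1_001 titles) lay below the other 3 (R1 titles) and near the early level. Sham skin changed by -4.30 ± 0.85 between the times (adjusted p = 0.0296) and irradiated skin by 0.95 ± 0.77 (adjusted p = 0.37). The difference was 5.25 ± 1.06 (adjusted p = 0.0104), 3.77 within R1_001 titles and 6.16 within R1 titles.

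The receptor Cxcr2, which guides neutrophils along chemokines, followed the same order. It stood at 1.07 to 6.75 and 3.58 to 6.45 CPM at 6 h and at 0 to 1.02 and 2.59, 2.43, 20.3, 21.5 and 17.8 CPM at 48 h (difference 4.44 ± 0.94). Clec4d, a lectin of neutrophils and monocytes, was called up at both times. It stood at 1.89, 7.18, 5.85, 7.59 and 1.52 CPM in sham and 14.6, 18.8, 13.4, 12.0 and 15.9 CPM in irradiated skin at 6 h, and at 0 to 0.181 and 3.24, 1.77, 21.7, 16.4 and 17.9 CPM at 48 h. The effect went from 1.68 ± 0.51 to 6.10 ± 0.75, while sham skin changed by -5.08 ± 0.77 and irradiated skin by -0.66 ± 0.55. The myeloid genes Slfn4 and Cd300lf had sham changes of -3.49 ± 0.60 and -3.98 ± 0.86 and irradiated changes of 0.62 ± 0.55 and 1.59 ± 0.67. Csf3r, the receptor for granulocyte colony stimulating factor, lost its call in 12 of the 20 fits without 1 library. Summed CPM of the 14 markers ran from 179 to 259.5 in sham and 215 to 276 in irradiated skin at 6 h, and from 123 to 187 and 91.9 to 438 at 48 h. Cxcr2 and S100a8 were at 0 in 1 library, both Sham 48 h replicate 1. Without 1 library, 4 to 7 of the 14 had a higher late effect. By limma voom 2 were higher and 1 lower, and with all 145 libraries 3 were higher and 0 lower. In bulk tissue, fewer cells of a type and less RNA per cell cannot be told apart.

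Over the 648 genes, the sham change between the times was larger in size than the irradiated change for 73, of which 47 had a higher late effect. In 17 of the 648 the sham change was itself called. The part of the sham change in the difference was not tested further.

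Cytokines moved less uniformly. Of 13 genes of the interleukin-1 family, Il33 had a higher and Il1rn a lower effect at 48 h. Il33, an alarm cytokine of epithelium and stroma, stood at 30.0 to 63.5 and 39.6 to 98.5 CPM at 6 h, with overlap, and at 28.0 to 35.4 and 64.9 to 172 CPM at 48 h, without (difference 1.16 ± 0.29, call lost in 9 of 20 fits). Il1rn, the antagonist of the interleukin-1 receptor, stood at 34.1, 36.8, 53.0, 49.7 and 43.6 CPM in sham and 53.6, 95.6, 67.4, 103 and 72.4 CPM in irradiated skin at 6 h, and at 32.6 to 45.8 and 29.2 to 34.6 CPM at 48 h. It was up without overlap early and within the sham range or below it late (difference -1.05 ± 0.21, adjusted p = 0.0108). Il1b was not called (1.34 ± 0.79, adjusted p = 0.39). Of 10 listed chemokines and growth factors that draw neutrophils, 5 were tested, and all 5 were called up at 48 h and 2 at 6 h. A gene near 0 in sham skin passes the filter on low counts only if it is higher in irradiated skin. The count of genes called up was thus partly fixed beforehand. The median change of the 5 between the times was -1.86 in sham and 0.33 in irradiated skin. In the difference edgeR called 0 of them (1 at an unadjusted p under 0.05, 1 by DESeq2, 0 by limma voom). Of these, Cxcl5 was at 0 in all sham libraries at 48 h and at 5.99, 2.03, 105, 51.7 and 47.6 CPM in irradiated skin, at least 1063-fold higher against a floor of 3 counts over the group, and Cxcl1 differed by 1.88 ± 1.06 (adjusted p = 0.364). The macrophage genes Ms4a7 and Adgre1 had a higher late effect, 1.52 ± 0.30 and 1.06 ± 0.25, 2 of 22 markers of monocytes and macrophages. Of 25 interferon stimulated genes 1 was called, Usp18, a brake on interferon signalling, with a lower late effect (-0.95 ± 0.21). The list went the other way, with 20 of 25 differences above 0 in value and medians of 0.19 at 6 h and 0.54 at 48 h. Its median change between the times was -0.52 in sham and -0.26 in irradiated skin. At 48 h 8 were called up and 1 down, and at 6 h 0. In the difference 12 had an unadjusted p under 0.05 (3115 of 16470 over all genes), and DESeq2 called 3 and limma voom 1.

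A smaller set of genes was called up at 6 h and had a lower effect at 48 h. Dio2 encodes the deiodinase that activates thyroid hormone. It stood at 5.27, 12.0, 6.12, 7.59 and 11.0 CPM in sham and 45.4, 112, 48.4, 124 and 127 CPM in irradiated skin at 6 h. Its levels at 48 h were 2.96, 9.44, 12.2, 3.50 and 7.63 CPM and 16.8, 16.4, 18.0, 11.4 and 22.0 CPM. All irradiated libraries were above sham early, and 1 of 5 lay within the sham range late. The effect fell from 3.41 ± 0.37 to 1.20 ± 0.36 (difference -2.21 ± 0.50, adjusted p = 0.0178). Cyp3a13, a cytochrome P450, stood at 4.33, 6.76, 5.30, 7.52 and 5.23 CPM in sham and 11.9, 28.8, 20.7, 29.7 and 27.7 CPM in irradiated skin at 6 h. In the 48 h animals it stood at 3.77, 4.95, 3.94, 6.03 and 5.34 CPM and 3.89, 5.44, 4.94, 5.26 and 3.86 CPM. It was apart early and at the sham level late, from 2.02 ± 0.22 to -0.04 ± 0.23.

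The windows of both genes (RefSeq, GRCm38.p6, minus strand) are shown because they had the largest falls of the named genes called up at 6 h. In Dio2, capitals mark the cyclic AMP element TGACGTCA 95 bases before the start, a TTGCNNAA match on the other strand 82 bases before it, and TATAAA 30 bases before it. In Cyp3a13, capitals mark TGANTCA 91 bases before the start.
Dio2 chr12:90739039-90739288: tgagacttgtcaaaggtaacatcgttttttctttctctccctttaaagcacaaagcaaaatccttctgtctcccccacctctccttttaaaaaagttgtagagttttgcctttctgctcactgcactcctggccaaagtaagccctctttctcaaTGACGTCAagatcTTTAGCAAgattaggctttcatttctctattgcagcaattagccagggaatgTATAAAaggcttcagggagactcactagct
Cyp3a13 chr5:137921620-137921869: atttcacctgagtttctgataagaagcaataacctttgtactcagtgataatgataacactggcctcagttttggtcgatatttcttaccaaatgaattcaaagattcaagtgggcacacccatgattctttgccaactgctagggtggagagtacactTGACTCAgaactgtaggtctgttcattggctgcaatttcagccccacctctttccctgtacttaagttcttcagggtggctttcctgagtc
TGACGTCA was found, on either strand, in 291 of 11667 windows of tested genes (2.49%) and in 1 of 49 of genes up only at 6 h (2.04%). Dio2 was called up at both times and is not among the 49. TGANTCA was found, on either strand, in 4.94% of windows of tested genes and in 3 of the 49 (6.12%). TATAAA, searched on the gene's strand only, was found in 4.55% and in 2 of the 49 (4.08%).

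Hexim1, an inhibitor of the elongation factor P-TEFb, stood at 47.7, 32.7, 32.1, 38.3 and 34.4 CPM in sham and 89.2, 82.3, 81.3, 79.3 and 68.0 CPM in irradiated skin at 6 h. At 48 h it stood at 32.2 to 48.7 CPM and 37.0 to 47.0 CPM. The groups were apart early and overlapped late (difference -1.02 ± 0.18, adjusted p = 0.0048). Sowahc went from 1.42 ± 0.18 to -0.02 ± 0.18, the monocarboxylate transporter Slc5a8 from 1.57 ± 0.28 to -0.35 ± 0.29, the thiamine transporter Slc19a2 from 1.69 ± 0.18 to 0.65 ± 0.17 and the adhesion gene Epcam from 0.74 ± 0.11 to 0.00 ± 0.11. Genes that were up at both times but less at 48 h numbered 5, among them Dio2, Slc19a2 and Aen.

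Most p53 target genes had no detected difference between the times. Of 31, 13 were called up at 6 h and 12 up at 48 h, with medians of 0.72 and 0.46. In the difference 2 had a lower late effect, Aen and Ddit4l, with 0 higher. The difference was above 0 in value in 8 of the 31, with a median of -0.34. DESeq2 called 1 higher and 4 lower, limma voom 1 and 5, and a fit of all 145 libraries 0 and 0. Aen, an exonuclease that acts in p53-dependent apoptosis, stood at 32.2, 36.1, 30.3, 18.2 and 25.1 CPM in sham and 84.7, 114, 84.9, 60.3 and 106 CPM in irradiated skin at 6 h. Later, at 48 h, it stood at 34.2, 27.5, 33.2, 37.0 and 31.9 CPM and 46.8, 44.6, 64.8, 46.7 and 49.1 CPM. Irradiated libraries were above sham at both times, with a smaller gap late (difference -1.05 ± 0.26, adjusted p = 0.0258, call lost in 3 of 20 fits). Ddit4l, an inhibitor of the growth kinase mTOR, was the other, and it was called down at 48 h, -1.15 ± 0.16, with -0.23 ± 0.16 at 6 h. Cdkn1a, the cell cycle inhibitor p21, stood at 129, 111, 135, 92.3 and 158 CPM in sham and 323, 429.9, 310.2, 248 and 472 CPM in irradiated skin at 6 h, and at 114 to 149 and 172 to 261 CPM at 48 h. It was above sham without overlap at both times, and the difference of -0.74 ± 0.25 was not called (adjusted p = 0.1, 95% interval -1.26 to -0.22). Mdm2, the ligase that degrades p53, and Pmaip1, which promotes apoptosis, differed by -0.56 ± 0.18 and -1.0 ± 0.44 and were not called (adjusted p = 0.0918 and 0.218). Of 14 genes of the integrated stress and unfolded protein response, Atf4 (-0.52 ± 0.13) and Atf5 had a lower late effect. Among 31 nucleotide excision repair, 24 immediate early and 14 heat shock genes edgeR called 0, with median differences of -0.03, -0.25 and -0.19. In the same order 4, 2 and 2 had an unadjusted p under 0.05, DESeq2 called 2, 1 and 2, and limma voom 0, 0 and 2. Over all 16470 genes, 3115 had an unadjusted p under 0.05, DESeq2 called 1242 and limma voom 2035.

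Mitotic genes had a difference above 0 in 24 of 25, and few passed the test. Of the 25, 4 had a higher late effect (Ccnb2, Plk1, Cdca3 and Aurka) and 0 a lower one, with medians of -0.86 at 6 h, 1.30 at 48 h and 2.2 for the difference. Ccnb2, a cyclin of mitosis, stood at 5.00, 18.3, 8.02, 7.66 and 13.7 CPM in sham and 5.16, 3.34, 2.83, 5.27 and 6.06 CPM in irradiated skin at 6 h. The 48 h values were 5.38, 25.4, 10.5, 6.15 and 5.09 CPM and 21.0, 35.2, 35.2, 16.3 and 34.4 CPM. The groups overlapped at both times, and Sham 48 h replicate 2 was the 1 sham library within the irradiated range there. That library also had the highest hair shaft level. Without that library 22 of the 25 mitotic genes had a higher late effect, without 40 mJ/cm2 6 h replicate 4 there were 14, without Sham 6 h replicate 1 there were 11, and without any 1 of the other 17 libraries there were 2 to 6. With the hair shaft level as a covariate there were 23, and with the skeletal muscle level as a covariate 0. With neither covariate, DESeq2 called 14 higher and limma voom 21 higher and 1 lower. The part of these levels in the mitotic difference was not tested further. Of 24 genes of DNA replication 1 was called, the polymerase gene Pola1 (1.96 ± 0.47), which spans 327 kb and was called down at 6 h, with its call lost in 5 of 20 fits without 1 library.

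Genes lower only at 48 h included many of skeletal muscle, the tissue under the dermis. Of 21 muscle genes, 15 were called down at 48 h and 0 at 6 h, and 10 had a lower late effect, with medians of 0.08 and -1.14. Casq1, calsequestrin, the calcium store of fast muscle, stood at 1308, 906, 1359, 963 and 1182 CPM in sham and 1192, 1302, 1383, 651 and 1003 CPM in irradiated skin at 6 h. By 48 h it stood at 1249, 1021, 1195, 1109 and 1543 CPM and 612, 326, 548, 465 and 472 CPM. The early groups overlapped, and late all irradiated libraries were below all sham libraries (difference -1.28 ± 0.28, adjusted p = 0.0154). Myoz3, a protein of the muscle Z disc, had the smallest p of the genes lower only at 48 h. It stood at 61.6 to 77.7 and 53.4 to 89.9 CPM at 6 h and at 74.9 to 111 and 38.9 to 44.8 CPM at 48 h, apart only late (difference -1.16 ± 0.19). The muscle genes Klhl33, Fbxo40 and Fsd2 changed by -1.51 ± 0.18, -1.19 ± 0.15 and -1.20 ± 0.13 at 48 h, and Mstn, myostatin, by -1.87 ± 0.25. Summed CPM of the 21 genes ran from 37364 to 66395 in sham and 24343 to 79660.0 in irradiated skin at 6 h, and from 48707 to 76274 and 22257 to 37630.3 at 48 h. None of them was at 0 in all 5 libraries of a group. With this level as a covariate, 277 of the 414 genes with a higher late effect and 115 of the 234 with a lower one were still called. Over all genes the count was then 4033. The lower effect of the muscle genes was seen in 15 of the 21 without 40 mJ/cm2 6 h replicate 4 or without Sham 48 h replicate 2. It was seen in 2 without Sham 48 h replicate 5, in 3 without Sham 48 h replicate 1 and in 4 to 10 without any 1 of the other 16. The part of muscle content in the other late falls was not tested further.

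Other genes lower only late belong to Langerhans cells, sebaceous glands and matrix. Cd207, langerin, the defining marker of Langerhans cells, stood at 7.84, 10.6, 12.6, 9.19 and 9.52 CPM in sham and 8.77, 7.16, 9.39, 13.8 and 11.6 CPM in irradiated skin at 6 h. Its levels at 48 h were 17.5, 6.80, 12.0, 15.4 and 11.6 CPM and 6.64, 3.08, 1.28, 4.09 and 2.57 CPM. The early groups overlapped, and late every irradiated library was below every sham library (difference -1.90 ± 0.46, adjusted p = 0.0247, call lost in 2 of 20 fits). Among 12 Langerhans and MHC class II genes, Cd207 and Epcam, the latter up only at 6 h, had a lower late effect, and the list median was 0.05 and -0.08. With the muscle level as a covariate 4 of the 12 were higher and 2 lower, and the median difference turned from -0.23 to 0.59. Of 17 sebaceous and lipid genes, Scd3, a desaturase of sebaceous glands, and Cidea did, Scd3 by -1.89 ± 0.49 with the call lost in 12 of 20 fits. Sparc, a collagen-binding matrix protein, stood at 10625, 11175, 14392, 12602 and 12081 CPM in sham and 7240.0, 5356, 4575, 7954 and 8093 CPM in irradiated skin at 48 h. Its groups were apart then and overlapped at 6 h, and it was the 1 of 19 genes of resting dermis called (difference -1.03 ± 0.26). Inmt, a methyltransferase, had the largest fall of the named genes, -3.34 ± 0.83, with the call lost in 10 of 20 fits. Calm5, a calmodulin-like gene of the epidermis, went from 0.67 ± 0.25 to -1.24 ± 0.26.

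Genes called in opposite directions at the times numbered 19, 17 of them down early and up late. Ces2f, a carboxylesterase, had the smallest p of these. It stood at 2.43, 2.54, 1.50, 4.31 and 4.47 CPM in sham and 0.688, 1.53, 2.04, 1.76 and 2.32 CPM in irradiated skin at 6 h. In the 48 h animals it stood at 2.42, 1.94, 2.19, 2.89 and 2.80 CPM and 11.2, 13.4, 13.5, 10.7 and 13.6 CPM. The groups overlapped early, and late all irradiated libraries lay far above sham. The effect went from -0.83 ± 0.25 to 2.39 ± 0.24 (difference 3.22 ± 0.35, adjusted p = 0.000214). Ltbp1, which stores latent TGF-beta in the matrix and spans 387 kb, stood at 121, 104, 108, 115 and 98.6 CPM in sham and 81.1, 74.3, 67.8, 78.9 and 70.1 CPM in irradiated skin at 6 h. At 48 h it stood at 98.3, 104, 103, 115 and 95.3 CPM and 131, 139, 136, 138 and 119 CPM. Irradiated libraries were below all sham libraries early and above all of them late. The urate transporter Slc2a9 went from -1.07 ± 0.18 to 0.76 ± 0.17, the myeloid receptor gene Cd300ld3 from -1.12 ± 0.31 to 2.02 ± 0.31 and the reductase Ptgr1 from -0.51 ± 0.11 to 0.56 ± 0.11. The 2 genes in the other direction, Rabgef1 and Arfrp1, act in membrane traffic and went from 0.39 ± 0.10 and 0.34 ± 0.10 to -0.34 ± 0.10 and -0.33 ± 0.10.

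**Figure D4:**
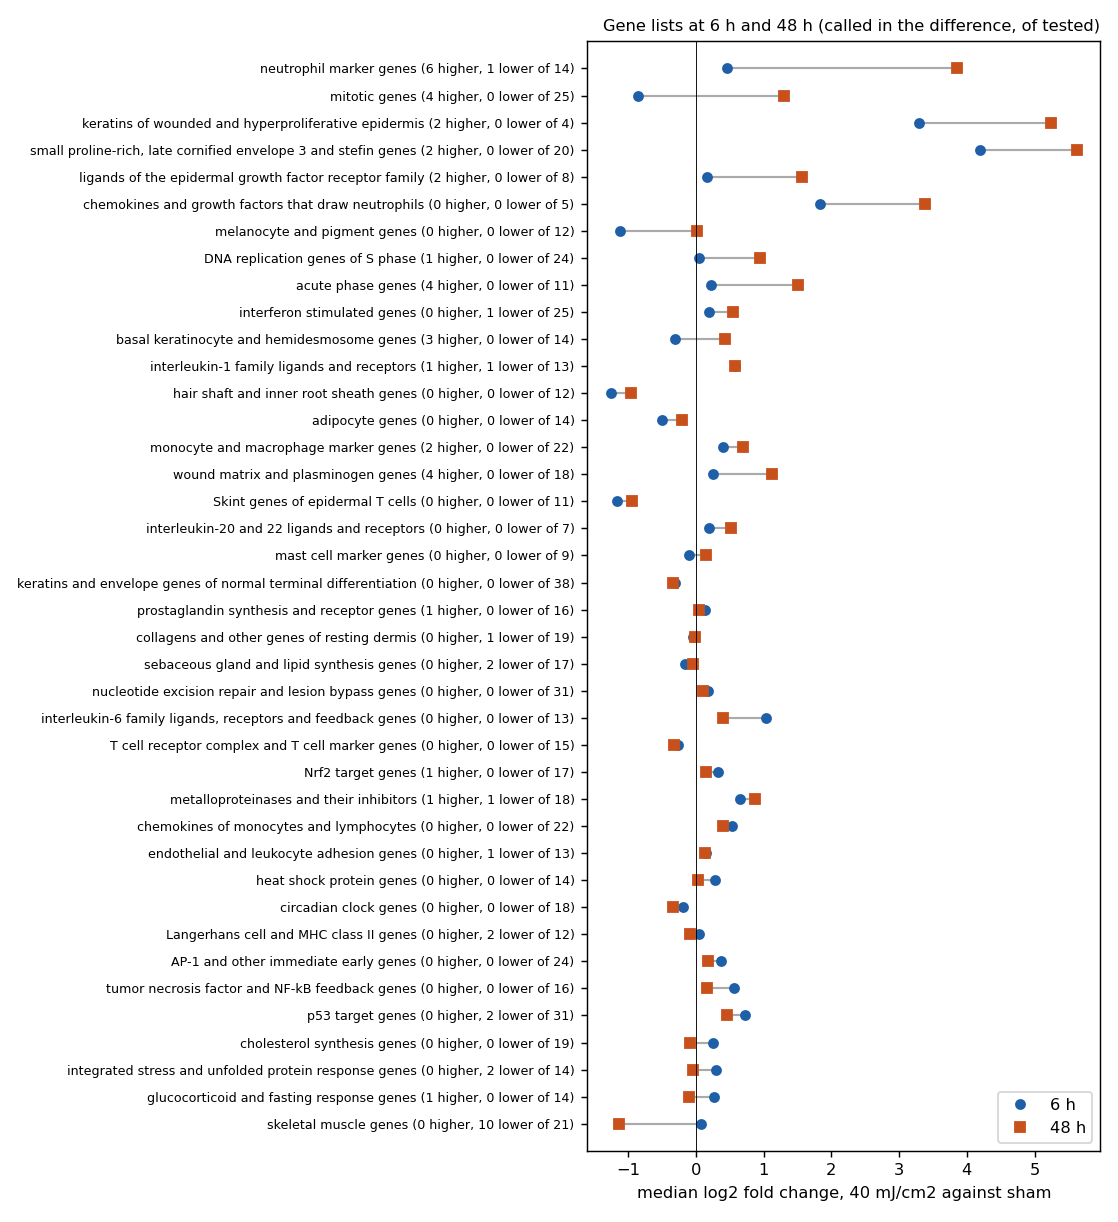
Median log2 fold change of 40 mJ/cm2 against sham over the tested members of each of 40 gene lists at 6 h (circles) and 48 h (squares), ordered by the median difference, with the number called higher and lower in the difference. Neutrophil, mitotic, wound keratin and cornified envelope lists have higher median effects against sham at 48 h, and skeletal muscle genes move from 0.08 to -1.14.

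Many effects did not differ detectably. In all, 444 genes were called in the same direction at both times, 272 up and 172 down, and 424 of them had no call in the difference. For 233 of these 424 the 95% interval of the difference lay within 1 log2 unit of 0, and for the rest it reached beyond that. Over all 16470 genes, 3115 had an unadjusted p under 0.05 in the difference, and DESeq2 called 1242 and limma voom 2035. In 17 of the 40 gene lists, holding 280 genes, edgeR called 0 in the difference, with 40 at an unadjusted p under 0.05, 19 called by DESeq2 and 20 by limma voom. Beside those already given, these were the genes of T cells, mast cells, the Skint family of epidermal T cells, the clock, cholesterol synthesis, fat cells, hair shafts and melanocytes. They also took in the interleukin-6 and interleukin-20 families, NF-kB feedback and the chemokines of monocytes and lymphocytes. The 11 Skint genes had median effects of -1.17 and -0.94, with 5 called down at 6 h and 2 at 48 h.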

How the data were processed

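Expected counts per gene for each library, not whole numbers in 12.6% of values, were deposited by the authors and rounded here. The submitters' processing notes name GRCm39 as the build, with STAR 2.7.10a, DESeq2 1.36.1, fastp 0.23.0 and bcl2fastq 2.20.422. The kit marks strand, per the labels' protocols, but the sources used here do not give the counting program, annotation or strand setting. Overlapping genes and near copies are therefore uncertain. Of 55416 gene IDs, 52083 were given a symbol. Gene spans are those of a GENCODE annotation of GRCm38, and promoter windows are of RefSeq (GRCm38.p6).

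The 20 libraries of the 4 groups were fitted with edgeR 4.0.16 (quasi-likelihood F test, R 4.3.3), with TMM scaling, filterByExpr and the title ending as a covariate, leaving 15 residual degrees of freedom. The difference and both effects were contrasts of this fit, adjusted by Benjamini-Hochberg over 16470 genes. The SE was taken from the fold change and its F value. limma 3.58.1 and DESeq2 1.42.0 served as alternatives, beside other scalings, filters, covariates, library sets and leaving out each library. On simulated counts with 200 changed genes, 24% of those changed by a log2 of 1 and 81% of those changed by 2 were recovered. Of 110 calls 5 were false. The changed genes were drawn from those with an expected count of at least 20 at the median depth. Each gene had 1 mean, without effects of time, dose or title ending. The rates thus do not cover genes of lower count or variation in tissue content. Of 40 pairs of libraries within groups none agreed within sampling noise (lowest chi-square per degree of freedom 7.95). Named genes were those with the smallest p or largest change in each pattern and the called members of the lists, plus family members that were not called. The members and lists were chosen with earlier results of these data known.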

Additional observations from a re-analysis of the deposited data

Results flagged for a closer look

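Single libraries stood apart from the other 4 of their group in 7 of 152 groups of values checked, by the gap to the nearest library relative to the group's range, and chance flags about 1 in 20 groups. These were the mitochondrial share of Sham 6 h replicate 4 (13.5%) and the total count of 40 mJ/cm2 6 h replicate 2 (22.6 M). Among genes they were Grip1 in Sham 6 h replicate 2 (3.94 CPM), S100a9 in Sham 48 h replicate 5 (4.58 CPM) and Clec4d in Sham 48 h replicate 1 (0 CPM). Aen in 40 mJ/cm2 48 h replicate 3 (64.8 CPM) and Myoz3 in 40 mJ/cm2 48 h replicate 2 (38.9 CPM) were the others. By the test of the difference itself, 648 genes had effects that differed between the times, and 19 of them were called in opposite directions.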

How the results depend on the processing

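No paired analysis was possible because the replicate numbers follow accession order and pair no animals. The count of genes whose effect differed, 648 (414 higher and 234 lower), moved as follows. With all libraries of both times it was 219 (176 and 43), with all 145 libraries 174 (157 and 17), and with those of both times that hold at least 1 M counts, a choice made after seeing the data, 352 (268 and 84). Taking muscle content as a covariate gave 4033 (2074 and 1959), with that of hair shaft genes 1046 (702 higher) and with the mitochondrial share 1428 (772 and 656). By limma voom it was 2035 (1114 and 921), by DESeq2 1242 (711 and 531), and at a fold of at least 2 it was 413 (121 lower). Within R1_001 titles it was 0 (0 and 0) and within R1 titles 7 (7 and 0), each with fewer libraries. Leaving out 1 library gave 383 to 1177 (280 to 736 higher, 90 to 441 lower). The other alternatives stayed within 1.5 times, at 620 to 841.

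The 6 h count of 2188 was 742 at a fold of at least 2, 1339 and 1066 with the larger sets, 3633 with the muscle level, 294 and 194 within R1_001 and R1 titles, and 4209 by limma voom. Leaving out 1 library gave 1438 (without 40 mJ/cm2 6 h replicate 5) to 3049. In the same order the 48 h count of 2037 was 903, 1282, 917, 7126, 25, 1104 and 3728. Leaving out 1 library gave 1283 (without 40 mJ/cm2 48 h replicate 3) to 2427, and 1311 without Sham 48 h replicate 5. The causes were not tested.

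Of 3128 values for 92 named genes, 6 changed sign, in 4 genes that were not called. Of the 92, 81 were called in these same data, so a kept sign was likely beforehand. Within R1_001 titles Hbegf was -0.52, Krt17 -0.24, Il1b -0.22 and Cxcl1 -0.76. Leaving out 1 library gave -0.11 to 0.31 for Hbegf, with 2 values below 0. Depth limits genes near 0 counts, such as Nrg1 and Saa2 in sham skin and Grip1 in irradiated skin at 6 h.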
